A study of Homo sapiens with 6 samples.

Results

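The genes described here encode enzymes and receptors of the bioactive lipids lysophosphatidic acid (LPA) and sphingosine 1-phosphate (S1P). Arrays read their RNA, and no lipid, in spheroids and monolayers of the human mesothelioma cell line NCI-H226. There are 10 such genes here: PLPP1, PLPP2, PLPP3, SPHK1, SPHK2, SGPP2, SGPL1, S1PR1, LPAR1 and ENPP2. They are 10 of the 19776 genes that had a probe set of their own, a group of short DNA probes meant to read the transcripts of 1 gene, and together they had 20 of the 54675 probe sets of the array. The platform annotation named 19 of the 20, and the remaining one, for SPHK2, was named from the study's own list of changed genes. The genes were selected on the comparison of spheroids with monolayers, with the differences of these same arrays known, and 4 of the 20 probe sets (3 for PLPP3 and 1 for SPHK2) are in that list. Differences and calls of the 10 genes are therefore descriptions, and no p value is given for them.

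NCI-H226 is an established cell line, grown in medium with 10% fetal bovine serum. Of the 2 groups of 3 arrays, one was made from adherent monolayers and the other from spheroids, each formed from 10000 cells kept for 24 hours in wells whose coating prevents attachment. The labels name no drug treatment or genetic change, and they describe the replicates as biological. How many spheroids made up a sample is not given in the sources used here.

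LPA and S1P are signaling lipids that act from outside the cell through G protein-coupled receptors, and both are carried in serum. S1P is made inside cells by the sphingosine kinases SPHK1 and SPHK2, is returned to sphingosine by phosphatases such as SGPP2, and is cleaved irreversibly by the lyase SGPL1. LPA is made outside cells by autotaxin, the product of ENPP2. The membrane phosphatases PLPP1, PLPP2 and PLPP3, formerly named PPAP2A, PPAP2C and PPAP2B, face the outside of the cell and remove the phosphate from LPA, S1P and related lipids.

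Each value below is a signal intensity, the linear brightness of a probe set, for which the array median was 14.6 to 14.7 in monolayers and 15.2 to 18.05 in spheroids. Differences are on the log2 scale after each array was centred on its median, spheroids minus monolayers, with the standard error (SE) of a limma fit across 54613 probe sets. A probe set is called when its adjusted p in that fit is below 0.05, and the words rose, fell, upregulated and downregulated are kept for such probe sets. Folds are taken from the log2 difference and are not ratios of mean signals. Monolayer 1 stood apart from the other monolayers at several of the genes below, and where a call turns on it the value without it is given. All 7 mesothelial markers lay above the array median, and 1 of them, PDPN, was called higher. In cultures of a single line, fewer expressing cells and less RNA per cell cannot be told apart.

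Of the 20 member probe sets 8 were called, 6 upregulated and 2 downregulated, and 12 were not called. Over the whole array 9.43% of the probe sets were called (2.78% up and 6.65% down). The groups did not overlap at 10 member probe sets, and at 27.8% of all probe sets tested. Without monolayer 1, 12.0% of all probe sets were called, and 8 member probe sets were higher and 3 lower. The calls on all arrays fell on 5 genes. PLPP3, SGPP2 and PLPP1 were upregulated in spheroids, and SPHK2 and S1PR1 were downregulated. PLPP2, SPHK1, SGPL1, LPAR1 and ENPP2 had no called probe set. The median difference was 0.24 over the 20 probe sets and -0.08 over all probe sets tested. Without centring every difference, those of the members included, is higher by the same amount, and the value over all probe sets was 0.07. The choice of members fixes these counts in part, and nothing is read from their distance to the background.

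**Figure D1:**
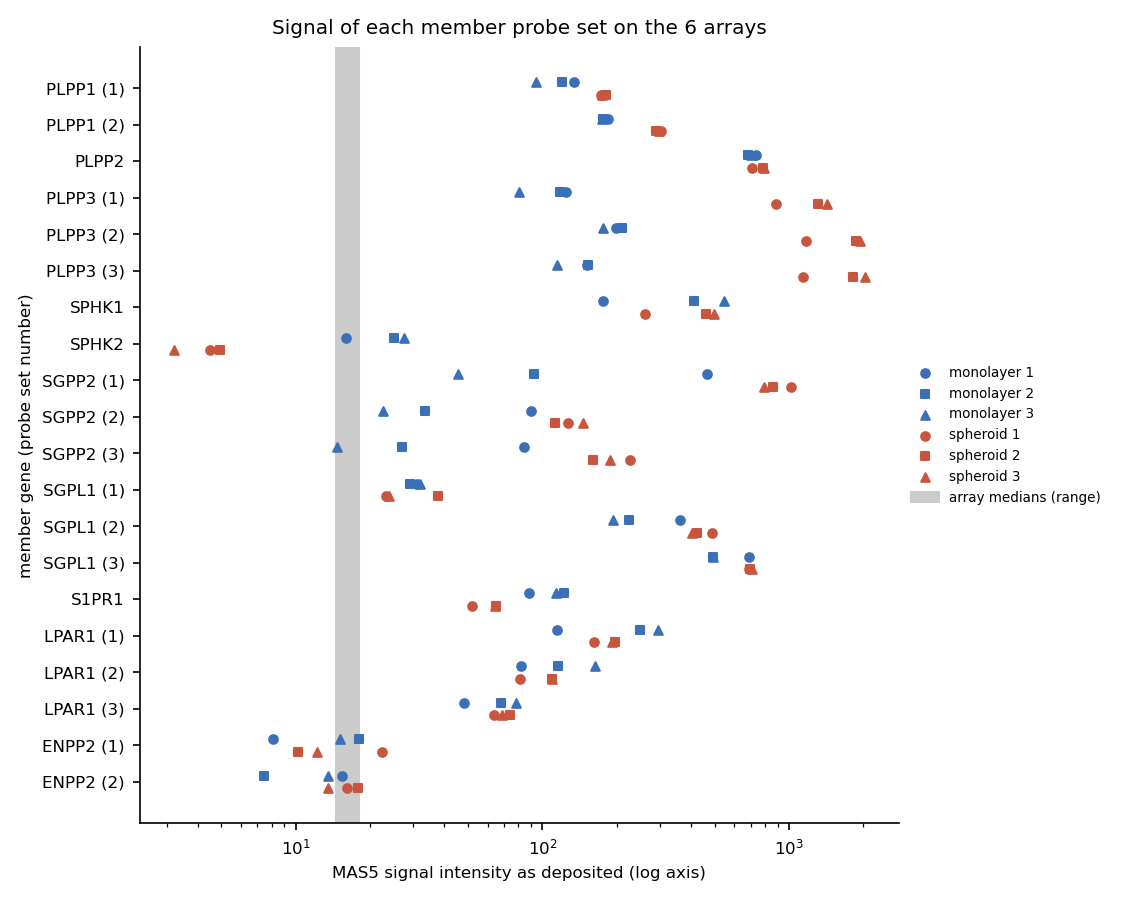
Signal intensity as deposited (log axis) of each member probe set on the 3 monolayer arrays (blue) and the 3 spheroid arrays (red), with the replicate number as the shape of the point and the range of the array medians in gray. Numbers in brackets tell apart the probe sets of 1 gene in the order of their identifiers. PLPP3 lies at 80.1 to 211 in monolayers and 881 to 2026 in spheroids, and both ENPP2 probe sets lie near the array medians.

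PLPP3, whose product degrades extracellular LPA and S1P, was the member with the greatest difference, and its 3 probe sets moved alike. The probe set 212230_at read 152, 153 and 114.5 in monolayers 1 to 3, and 1136, 1820 and 2026 in spheroids 1 to 3, the order used throughout. Every spheroid lay far above every monolayer, and spheroid 1 was the lowest of its group. The difference was 3.395 (SE 0.22), or 10.5-fold. The probe set 209355_s_at read 125, 118 and 80.1 in monolayers and 881, 1312 and 1422 in spheroids, a difference of 3.34 (SE 0.23). The probe set 212226_s_at read 199, 211 and 176 in monolayers and 1171, 1865 and 1932 in spheroids, a difference of 2.91 (SE 0.19). Spheroid 1 was thus the lowest spheroid and monolayer 3 the lowest monolayer at all 3 probe sets, which read the same transcripts and are not replicates of each other. Without any single array the difference at 212230_at stayed between 3.18 and 3.62, and all 3 probe sets were called under all 13 other settings that were fitted.

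PLPP1, a phosphatase of the same family, was higher in spheroids by a much smaller amount. Its probe set 210946_at had signals of 184, 176 and 174 in monolayers and 303, 289.9 and 297 in spheroids, without overlap and with little spread in either group. The difference was 0.59 (SE 0.14), or 1.51-fold. At 209147_s_at the signals were 134, 120.3 and 94.1 in monolayers and 173, 182 and 174.5 in spheroids. These groups did not overlap either, but the difference of 0.47 (SE 0.17) was not called on centred values and was called without centring (0.62). PLPP2, of the same family, had 737, 681 and 699 in monolayers and 707, 784 and 788 in spheroids. Its groups overlapped, and the difference was -0.04 with a 95% interval of -0.32 to 0.24 (0.11 without centring). The 95% intervals of the differences ran from 2.89 to 3.90 for PLPP3 at 212230_at, from 0.28 to 0.90 for PLPP1 at 210946_at, and from 0.08 to 0.86 for PLPP1 at 209147_s_at. These values are differences, and they do not rank the 3 genes by level. The call of PLPP1 at 210946_at was lost without monolayer 2 (0.59), monolayer 3 (0.57), spheroid 1 (0.55) or spheroid 3 (0.54).

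**Figure D2:**
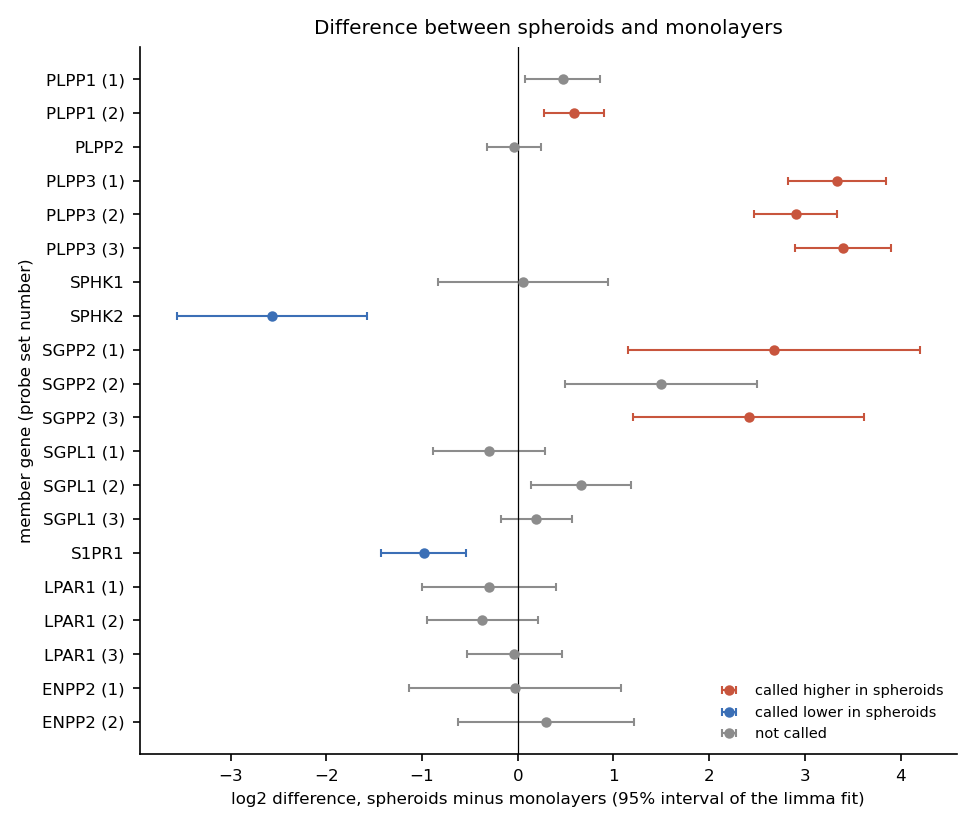
Difference of mean log2 signal, spheroids minus monolayers, for each member probe set with its 95% interval from the limma fit (n = 3 arrays per group). PLPP3 lies between 2.91 and 3.395, PLPP1 and SGPP2 have 1 probe set each that was not called, and SPHK2 (-2.57) and S1PR1 (-0.98) are the called probe sets below 0.

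SGPP2, a phosphatase of the endoplasmic reticulum that acts on S1P, was upregulated at 2 of its 3 probe sets, with a wide spread among the monolayers. At 226560_at the signals in monolayers were 463, 92.2 and 45.6, and in spheroids 1015, 864 and 789. The spheroids were close together and all above the monolayers, while monolayer 1 was 10.2 times monolayer 3. The difference was 2.68 (SE 0.67), or 6.40-fold. At 244780_at they were 84.1, 27.1 and 14.7, against 227, 160.0 and 188, a difference of 2.41 (SE 0.53). At 238567_at they were 90.3, 33.4 and 22.7 against 127, 112 and 147, a difference of 1.499 (SE 0.45) that was not called. Monolayer 1 was the highest monolayer at each of the 3 probe sets. Without it the differences were 3.62, 3.10 and 2.07 and all 3 probe sets were called. Without monolayer 3 the difference at 226560_at was 1.95 and at 244780_at 1.84, and neither was called. Both calls were also lost without monolayer 2 (2.46 and 2.29) and without spheroid 1 (2.55 and 2.25), spheroid 2 (2.77 and 2.61) or spheroid 3 (2.71 and 2.37), and that at 226560_at with a floor under dim signals.

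The mesothelial marker calretinin (CALB2) had the same order of monolayers, with 1582, 163 and 83.6, and 2238, 1317 and 1765 in spheroids. The keratin KRT5 had 1845, 130 and 79.3 in monolayers and 910.5, 267 and 290.4 in spheroids. UPK3B (1783, 692 and 427), MSLN (345, 218 and 179) and WT1 (1845, 1452 and 1347) had that order of monolayers too. Not all 7 mesothelial markers had it, and at an unadjusted limma p below 0.05 there were 2 higher and 1 lower. The lower one was THBD, with 349, 99.9 and 127.5 in monolayers and 96.1, 86.5 and 54.3 in spheroids. The order of the monolayers also differed at THBD and at PDPN (869, 397 and 426). The summed signal of all 7 mesothelial markers ran from 2670 to 8617 in monolayers and from 6447 to 9116 in spheroids. The part of these differences between cultures in the SGPP2 result was not tested.

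**Figure D3:**
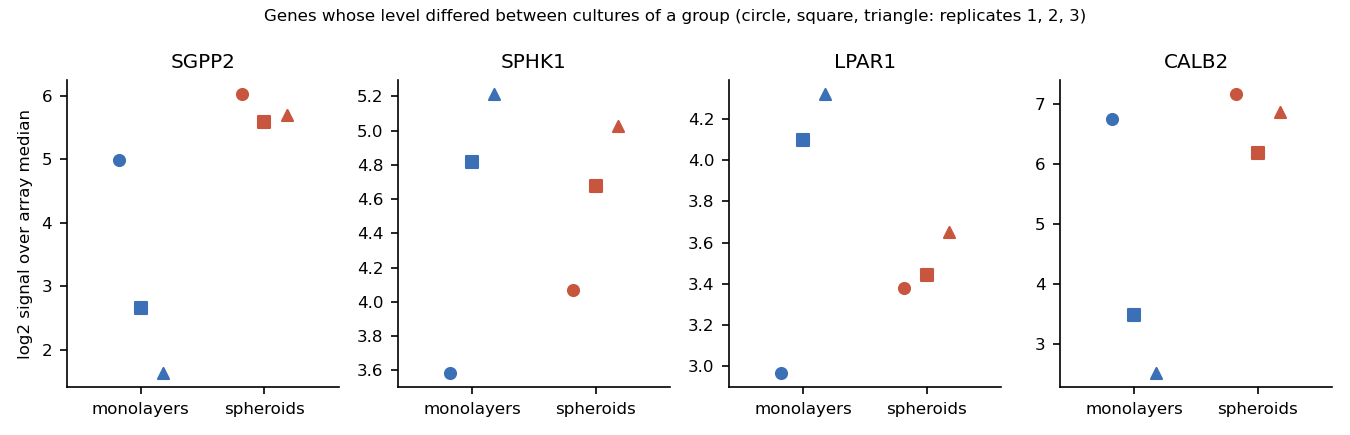
Log2 signal over the array median in the 3 monolayers and 3 spheroids for SGPP2 (226560_at), SPHK1, LPAR1 (204036_at) and the mesothelial marker CALB2, each on its own vertical scale. The shape of a point gives the replicate number; monolayer 1 is the highest monolayer for SGPP2 and CALB2 and the lowest for SPHK1 and LPAR1.

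PLPP3 and SGPP2 had the largest rises among the members, but their calls were not equally stable. Those of PLPP3 held in all 13 other settings, and those of SGPP2 in 5 (226560_at) and 6 (244780_at) of 13. The PLPP3 probe sets are in the study's list of changed genes, made from these same arrays, and those of SGPP2 are not. The upstream bases of both genes are shown. They are the 250 bases before the start of each gene in RefSeq, on the strand of the gene, from the reference genome and not from these cells. Capitals mark matches, on either strand, to the TATA box (TATAAA), the GC box (GGGCGG), an AP-1 motif (TGANTCA) or an NF-kB motif (GGNNTTTCC), which do not overlap here. These motifs were picked with the array results known.
PLPP3, GRCh38.p14 chr1:56579564-56579813, minus strand: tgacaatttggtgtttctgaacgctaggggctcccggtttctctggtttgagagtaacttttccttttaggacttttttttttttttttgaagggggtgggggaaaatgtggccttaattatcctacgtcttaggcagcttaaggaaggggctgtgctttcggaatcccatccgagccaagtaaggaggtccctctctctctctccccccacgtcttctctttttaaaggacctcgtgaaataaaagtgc
SGPP2, GRCh38.p14 chr2:222423738-222423987, plus strand: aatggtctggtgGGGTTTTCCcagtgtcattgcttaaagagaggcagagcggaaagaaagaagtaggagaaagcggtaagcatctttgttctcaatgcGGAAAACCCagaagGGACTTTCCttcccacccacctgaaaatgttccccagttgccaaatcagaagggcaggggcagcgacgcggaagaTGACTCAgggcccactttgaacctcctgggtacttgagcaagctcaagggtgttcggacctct

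The PLPP3 window, with 46% G and C, held none of the 4 motifs. The SGPP2 window, with 52% G and C, held 3 matches to GGNNTTTCC, which start 238, 152 and 138 bases before the gene, and 1 to TGANTCA, 63 bases before it. Of 34943 upstream windows of 250 bases, 5.48% held GGNNTTTCC at least once, 0.0143% held it at least 3 times, and 6.59% held TGANTCA. The TATA box was in 10.8% and the GC box in 42.5%. A second SGPP2 start in RefSeq had 7 GC boxes and none of the other 3 motifs, and the arrays do not show which start was used. Among the other members with a window, SPHK1, which was not called, held the AP-1 motif 71 bases before one of its starts, LPAR1 held a TATA box, and SPHK1, SPHK2, SGPL1 and LPAR1 held GC boxes. The windows of PLPP2 and S1PR1 held none of the 4 motifs. A match is a string of letters and was not tested for binding.

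SPHK2, a sphingosine kinase found in the nucleus and mitochondria, was downregulated at its single named probe set, 209857_s_at. The platform annotation used here named no probe set for SPHK2, so others that may read this gene were not analysed here. This probe set got its name from the study's list of changed genes. An unchanged probe set of SPHK2 could not have entered, so the fall describes this probe set and not the gene. The signals were 15.97, 25.1 and 27.4 in monolayers and 4.48, 4.91 and 3.21 in spheroids. All spheroids lay below all monolayers, and the difference was -2.57 (SE 0.44), or 5.94-fold lower. The probe set was dim. Its monolayers lay little above the array medians and its spheroids just above the 20th percentile of all signals, which was 3.11 over the 6 arrays, so the fold depends on values whose level over background is not known. Left out 1 at a time, the arrays gave differences of -2.81 to -2.42, and the probe set was called in each case.

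SPHK1, the mainly cytosolic sphingosine kinase, was not called. Its signals were 175.5, 413 and 546 in monolayers and 262, 462 and 494.5 in spheroids. The groups overlapped, and replicate 1 was the lowest culture in both of them. The difference was 0.05 (SE 0.39), with an interval of -0.84 to 0.94 that holds changes of nearly 1 log2 unit either way, and without monolayer 1 it was -0.43. SGPL1, the lyase, was not called at any of 3 probe sets. At its brightest, 212322_at, the signals were 689.9, 493 and 491 in monolayers, against 687, 697 and 705 in spheroids, a difference of 0.19 (SE 0.16). At 212321_at the difference was 0.66 (SE 0.23), called after quantile normalization, with the replicate number as a block and without monolayer 1 (0.93). At 208381_s_at, the dimmest, it was -0.30 (SE 0.26), so the probe sets of SGPL1 did not share a direction.

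S1PR1, the S1P receptor known from endothelium and lymphocytes, was downregulated. Its probe set 204642_at had signals of 88.3, 122 and 113 in monolayers and 51.7, 64.6 and 64.0 in spheroids. The groups did not overlap, and the difference was -0.98 (SE 0.20), or 1.98-fold. The call was lost without monolayer 2 (-0.89), monolayer 3 (-0.94) or spheroid 2 (-0.96). Of 6 endothelial markers limma called 0, with 1 higher at an unadjusted p below 0.05, and of 4 measured leukocyte markers 0, with 2 higher. Limma without the trend and the methods' t-test called 0 in both lists. The endothelial markers were not uniformly dim. TIE1 lay between 19.3 and 205 on the 6 arrays, KDR between 8.35 and 422 (its highest in monolayer 1), PECAM1 between 16.6 and 35.3, TEK between 1.496 and 9.40, and CDH5 between 0.74 and 4.96. VWF read 2.66 to 3.89 in monolayers and 5.41 to 23.6 in spheroids, without overlap (difference 2.01, adjusted p = 0.115 by limma). The summed signal ran from 235 to 476 in monolayers and 173 to 225 in spheroids for the endothelial list, and from 104 to 127 and 143 to 179 for the leukocyte list, and their part in the S1PR1 result was not tested.

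LPAR1, an LPA receptor of many mesenchymal cells, was not called at any of its 3 probe sets. At 204036_at the signals were 114.5, 249.8 and 294 in monolayers and 162, 196 and 191 in spheroids. The spheroids lay within the range of the monolayers, and monolayer 1 was far below the other monolayers. The difference was -0.30 (SE 0.31), and without monolayer 1 it was -0.72 and called. The differences at 204037_at and 204038_s_at were -0.37 (SE 0.26) and -0.04 (SE 0.22), the latter 0.11 without centring. ENPP2, which encodes autotaxin, read 8.08, 17.99 and 15.1 in monolayers and 22.5, 10.2 and 12.2 in spheroids at 209392_at. The second probe set, 210839_s_at, had 15.5, 7.43 and 13.5 against 16.1, 17.9 and 13.5. Both lay near the array median with overlapping groups, and the differences of -0.03 (SE 0.49; 0.12 without centring) and 0.29 (SE 0.41) leave changes of about 1 log2 unit unresolved.

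**Figure D4:**
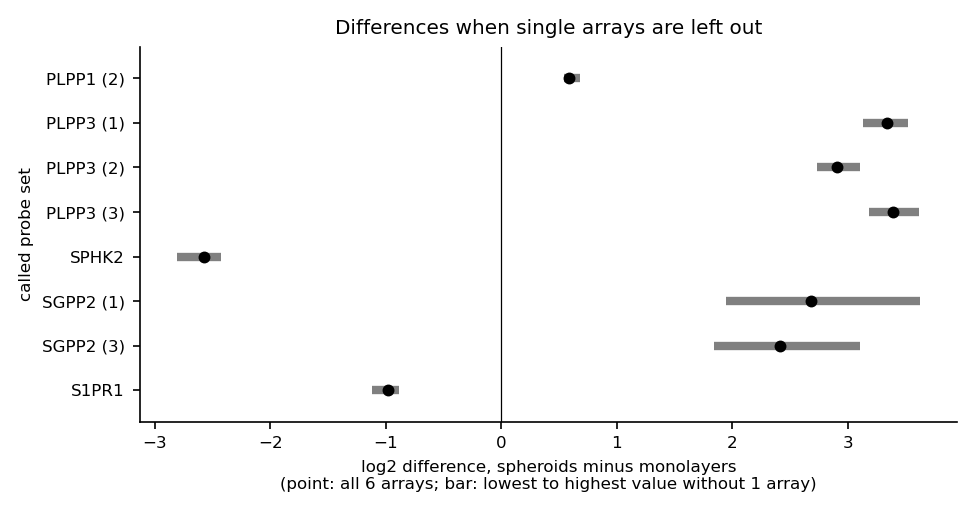
Difference of mean log2 signal, spheroids minus monolayers, at the 8 called member probe sets, with all 6 arrays (point) and the range of values when each array is left out in turn (bar). The bars of PLPP3 span at most 3.18 to 3.62 at 212230_at, and those of SGPP2 reach from 1.95 to 3.62 at 226560_at.

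The calls of the smaller or more variable differences depended on the test. Limma without a mean-variance trend called 0.837% of all probe sets and 4 of the 20 member probe sets, and the methods' t-test, adjusted over all probe sets, called 2.27% and also 4. In both, these were the 3 probe sets of PLPP3 and that of SPHK2, while PLPP1, SGPP2 and S1PR1 were not called.

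The genes whose pattern over the 6 arrays lay nearest to that of PLPP3 at 212226_s_at, its brightest probe set, were ITGA1, HSD11B1, PILRA, NDRG4 and NFKBIZ. They were found by the root mean square difference of log2 values after each gene's own mean was subtracted, which ran from 0.19 to 0.26. ITGA1 is an integrin subunit that binds collagen, HSD11B1 regenerates active cortisol, and NFKBIZ is a nuclear member of the IkB family. Nearest to SPHK2 were ADISSP, KCNQ5, SOD2, CENPV and MATR3, at 0.12 to 0.26, the SOD2 value being that of 1566342_at. The paper names SOD2 among both its upregulated and its downregulated genes, so the match holds for that probe set and not for SOD2 as a gene. For both genes the search took only probe sets of 1 gene with a mean level above the median of those tested. SPHK2 itself lay below that median, at percentile 42.6, so probe sets as dim as its own were not compared. The points compared are 2 groups of 3 arrays, so a difference of like size between the groups weighs most in this measure.

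Genes of the same pathway outside the 10 were read in 6 lists of 74 genes, of which 68 had a named probe set, and each was read at its brightest one. Of the 68, limma called 3 higher and 5 lower, and 60 were not called. Over all 19776 genes read in the same way, 3.88% were called higher and 9.23% lower, against 4.41% and 7.35% of the 68. The median difference was -0.05 over the lists and -0.06 over all genes. The balance of directions moved with the scaling, with 6 higher and 5 lower without centring and 6 higher and 4 lower after quantile normalization. Over the whole array 29.5% of the called probe sets were higher on centred values, 47.2% without centring and 45.3% after quantile normalization.

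None of the 8 other S1P and LPA receptors measured was called by limma, by limma without the trend or by the methods' t-test, and 1 was lower at an unadjusted p below 0.05. That was S1PR3, with 561, 433 and 487 in monolayers and 428, 394.5 and 428 in spheroids (difference -0.38, SE 0.16, adjusted p = 0.182 by limma). S1PR2 read 42.1 ± 8.74 and 52.1 ± 7.52 (SD, n = 3), a difference of 0.18, and S1PR4 differed by -0.62. S1PR5 had 361 in monolayer 1 and 85.9 and 69.4 in the other monolayers, with 127.5, 89.2 and 87.5 in spheroids. Its difference of -0.52 turned to 0.23 without monolayer 1. LPAR2 differed by -0.15, LPAR3 by 0.41, LPAR4 by -0.20 and LPAR6 by -0.49, all within their standard errors of 0.27, 0.55, 0.87 and 0.65. LPAR3, LPAR4 and LPAR6 had signals below 14 on all arrays.

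Of 13 other lipid phosphatases and related proteins, 1 was higher, 2 were lower and 10 were not called. SGPP1, the second S1P phosphatase, fell from 878, 768 and 838 in monolayers to 528.5, 559.6 and 527 in spheroids (difference -0.77, SE 0.12, adjusted p = 0.00571 by limma). Its groups were far apart with little spread, and its sign was opposite to that of SGPP2 on the same arrays, but only 1 of its 2 probe sets was called. PLPP6, which acts on isoprenoid diphosphates, rose by 0.77 (SE 0.18, adjusted p = 0.0308 by limma), from 76.3 ± 6.06 to 145 ± 19.8 (SD, n = 3). PLPPR3, a family member of neurons, fell by 2.29 (SE 0.47, adjusted p = 0.0173 by limma) at a probe set whose spheroid signals of 3.95, 3.67 and 3.80 lay close to the 20th percentile. The call of PLPP6 was lost when any array but monolayer 1 was left out (0.62 to 0.87), and that of PLPPR3 without monolayer 2, monolayer 3 or spheroid 2 (-2.53 to -2.06 over all 6). PLPP5 and the phosphatidate phosphatase LPIN1 were not called, with differences of 0.58 and 1.15 (adjusted p = 0.0530 and 0.0781 by limma). The other 3 of the 4 PLPP5 probe sets were called higher, and the brightest one also passed without centring (0.72), after quantile normalization (0.73), among probe sets above the median level, with the replicate block, without monolayer 1 (0.65) and without spheroid 2 (0.69). LPIN1 passed among probe sets above the median level, with the replicate block and without monolayer 2 (1.56).

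Of 10 genes that make LPA or phosphatidic acid, 1 was higher and 2 were lower. PLD1, a phospholipase D, rose from 114, 47.1 and 44.1 in monolayers to 184, 237 and 232 in spheroids (difference 1.66, SE 0.33, adjusted p = 0.0159 by limma). Monolayer 1 was again the highest monolayer, and 4 of the 7 PLD1 probe sets were called higher. AGPAT5, an acyltransferase that turns LPA into phosphatidic acid, fell by 1.10 (SE 0.14, adjusted p = 0.00217 by limma), from 1072 ± 130 to 557 ± 107 (SD, n = 3), and 1 of its 2 probe sets was called. AGK, a mitochondrial lipid kinase that can make LPA, fell by 0.73 (SE 0.17, adjusted p = 0.0274 by limma). Of its 3 probe sets 2 were called lower. The calls of PLD1 (1.41 to 2.10) and AGK (-0.83 to -0.56) were lost without monolayer 2, monolayer 3, spheroid 2 or spheroid 3. GPAM, a mitochondrial acyltransferase, and LIPH, a lipase that makes LPA, had differences of -0.48 and 0.94 and were not called.

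Among 24 genes of ceramide synthesis and turnover, 1 was higher, 1 was lower and 22 were not called. ASAH1, the lysosomal acid ceramidase that releases sphingosine, rose by 0.80 (SE 0.20, adjusted p = 0.0398 by limma), from 415 ± 104 to 788 ± 119 (SD, n = 3). CERS6, a ceramide synthase, fell by 0.93 (SE 0.22, adjusted p = 0.0287 by limma), from 592 ± 163 to 339.7 ± 63.3, and did not pass after quantile normalization or without monolayer 2, spheroid 2 or spheroid 3 (-1.10 to -0.71). The call of ASAH1 was lost without any array but monolayer 1 (0.64 to 0.99) and with a floor under dim signals. On all arrays 3 of the 4 CERS6 probe sets were called lower and 3 of the 5 of ASAH1 higher. SPTLC2, a subunit of the enzyme that starts sphingolipid synthesis, and ORMDL3, which restrains that enzyme, had differences of -0.81 and 0.47 (adjusted p = 0.0531 and 0.159 by limma). Of the 5 SPTLC2 probe sets 2 were called lower, and of the 4 of KDSR, which was not called at its brightest, 2 were called higher. SPTLC2 passed among probe sets above the median level, with the replicate block and without spheroid 1 (-0.96), and ORMDL3 without centring (0.61) and after quantile normalization (0.64). Of 3 genes for S1P transport and breakdown limma called 0, with 0 at an unadjusted p below 0.05 and 0 by the methods' t-test. The S1P exporter SPNS2 had a difference of 1.15 (SE 0.83) and ABCC1 one of -0.15. Of 10 diacylglycerol kinases limma called 0, with 2 lower at an unadjusted p below 0.05, and the methods' t-test called 0. Their median difference was -0.44, with DGKZ at -0.46 and DGKE at -0.59.

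**Figure D5:**
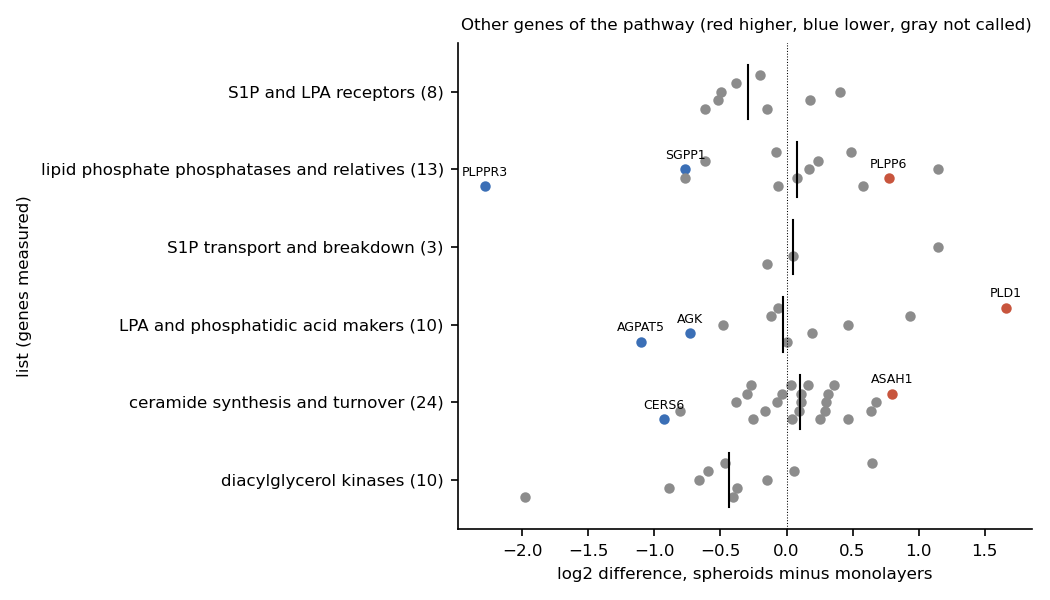
Difference of mean log2 signal, spheroids minus monolayers, for 68 genes of the pathway outside the 10, each at its brightest probe set and grouped by list; the vertical line is the median of a list. PLD1, PLPP6 and ASAH1 are the 3 called higher and PLPPR3, AGPAT5, CERS6, SGPP1 and AGK the 5 called lower.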

How the data were processed

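RNA from 3 monolayer and 3 spheroid cultures of NCI-H226 was hybridized to Affymetrix Human Genome U133 Plus 2.0 arrays. The deposited signal intensity of each probe set was made by the authors with MAS5, and its trimmed mean was 149.98 on every array. Detection calls were not used here. The labels call the replicates biological, and 3 arrays in a group limit the precision.

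Signals were put on the log2 scale, with no pseudocount or filter, and the median of each array was subtracted. With 62 control probe sets left out, limma 3.58.1 (R 4.3.3; empirical Bayes with a mean-variance trend) was fitted to 54613 probe sets, and p values were adjusted over all of them by Benjamini-Hochberg. The script was tested on simulated data. The members and lists were chosen with earlier results of these data known. Named genes are the members, the receptors, in each list up to 5 called genes and 2 others, by adjusted p, and the 5 nearest patterns of PLPP3 and SPHK2. The cell type markers and KDSR fall outside this rule and were named after their values were seen. Symbols came from the platform annotation, updated through RefSeq. LPAR5, MFSD2B, AGPAT3, SPTLC3, CERS1 and ASAH2 had no named probe set and were not analysed here. Of 6 fibroblast markers, PDGFRA alone was called higher (mean signal 4.72 in monolayers and 64.9 in spheroids), with sums of 1361 to 1596 in monolayers and 1404 to 1697 in spheroids.

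Other settings were uncentred and quantile-normalized values, dim signals raised to the 20th percentile, probe sets above the median level alone, no trend, the methods' t-test, the replicate number as a block, and leaving out each array. Deviations of same-numbered cultures from their group means correlated at 0.09, -0.01 and 0.02.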

Additional observations from a re-analysis of the deposited data

How the results depend on the processing

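The 3 PLPP3 probe sets were called under all settings that were fitted, and that of SPHK2 under all in which it was tested, since it fell out where only probe sets above the median level were kept. These probe sets are in the study's list of changed genes, made from these same arrays, so their calls were in large part fixed in advance. No called member changed sign. Of 257 refitted member differences, 253 moved by less than 1 SD between replicates, but most of them could not have moved further. The floor, level filter, trend, t-test and block settings left the member differences unchanged. Leaving out 1 of 3 arrays cannot shift a difference by 1 such SD. Those that moved further, without centring and after quantile normalization, were PLPP1 at 210946_at (0.59, to 0.74 and 0.76) and PLPP2 (-0.04, to 0.11 and 0.13).

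The member probe sets called higher, 6 in the analysis as reported, numbered 3 in limma without a trend, also 3 with the methods' t-test, and 3 to 8 when single arrays were left out. Those called lower, 2 as reported, numbered 1 in each of those, 1 among probe sets above the median level, and 1 to 3 without single arrays. Pathway genes called higher, 3 as reported, were 6 without centring, 6 after quantile normalization, 5 among probe sets above the median level, 0 without the trend, 0 by the methods' t-test, 5 with the replicate block, and 0 to 4 without single arrays. Counted over all 151 probe sets of these genes, 13 were higher and 10 lower. Pathway genes called lower, 5 as reported, were 1 without the trend, 2 by the methods' t-test, 10 by that test without adjustment, and 2 to 6 without single arrays. Over the whole array, 5149 probe sets were called as reported, 457 without the trend, 1241 by the methods' t-test, 10731 by that test without adjustment, and 2438 (without monolayer 2) to 6577 (without monolayer 1). The causes of these changes were not tested.

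With the replicate number as a block, 8 member probe sets were higher and 2 lower, 5 pathway genes were higher and 6 lower, and 6133 probe sets were called over the whole array. Only 2 of the 6 arrays deviated most like the array of their own number in the other group, both of replicate 1, so the numbers were not taken as pairs. That comparison ran over all probe sets, dim ones included, and cannot decide whether same-numbered cultures shared an experiment. Replicate 1 was the lowest culture of both groups at SPHK1, and the highest of both at SGPP2 (226560_at), CALB2 and KRT5. With the block the SE went from 0.39 to 0.17 at SPHK1 and from 0.67 to 0.42 at SGPP2 (226560_at), but from 0.44 to 0.52 at SPHK2.

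Some uncalled differences changed sign when single arrays were left out. They ran from -0.0055 (without monolayer 3) to 0.33 for S1PR2, and, with the value without monolayer 1 given last, from -0.97 to 0.23 for S1PR5, from -0.39 to 0.13 for LPAR2, from 0.74 to -0.15 for LPAR3, from -0.82 to 0.77 for LPAR4 and from -0.33 to 0.10 for ABCC1. After quantile normalization ABCC1 was at 0.0089. Uncalled members changed sign too, with ranges of -0.43 to 0.39 for SPHK1, -0.11 to 0.01 for PLPP2, -0.24 to 0.11 for LPAR1 (204038_s_at), and -0.39 to 0.28 (209392_at) and -0.02 to 0.50 (210839_s_at) for ENPP2. The calls of PLPP6, PLD1, AGK, CERS6, ASAH1 and PLPPR3 were each lost without at least 3 single arrays, and those of SGPP1 and AGPAT5 only without the trend.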
